A study of Mus musculus with 8 samples.

Results

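The miR-29 family comprised 7 mature miRNAs of the 1281 in the deposited table. They were the guide arms mmu-miR-29a-3p, mmu-miR-29b-3p and mmu-miR-29c-3p and the passenger arms mmu-miR-29a-5p, mmu-miR-29b-1-5p, mmu-miR-29b-2-5p and mmu-miR-29c-5p, named without the mouse prefix from here on. The members were taken by their family name, a rule that uses no measured value, although earlier results of these data were known. The 8 entries they have in the table were summed to 1 value per mature miRNA, since miR-29b-3p has an entry for each of its 2 precursors. Small RNA was sequenced from MC3T3 E1 sc4 cells, a cloned pre-osteoblast line derived from mouse calvaria, and from calvaria itself, the flat bones of the skull vault. By their titles the MC3T3 libraries were undifferentiated cells (day 0) and cells at days 6, 10, 17 and 24 in osteogenic medium with 50 µg/ml ascorbic acid and 4 mM β-glycerol phosphate. Each day was 1 library, made from equal amounts of RNA of 3 cultures at passage 10 to 15, so no day had a replicate. In the deposited table the columns of the 4 later days are marked "veh" and that of day 0 is not, a mark the labels do not explain. The 3 calvaria libraries came from parietal and frontal bones of female C57/B6 mice of 2 to 3 days carrying Prrx1-Cre, after a short collagenase and trypsin digestion. Prrx1 drives Cre in limb and skull mesenchyme. The labels give the MC3T3 cells the strain C57BL/6 and no Cre, and material and genotype cannot be told apart. Whether each calvaria library is its own animal is not stated in the labels, and the spread behind a p-value may therefore be technical.

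A miRNA is cut from a hairpin as a duplex of 2 arms. The guide arm is loaded into Argonaute and represses transcripts that pair with its seed, bases 2 to 8, while the passenger arm is usually degraded. The miR-29 guide arms are known for repressing collagens and other extracellular matrix transcripts. In osteoblasts they have been described both as repressors of collagen synthesis and as promoters of differentiation through repression of inhibitors of Wnt signalling. Transcripts and proteins were not measured in these libraries, so levels of the miRNAs are all that is compared here.

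The guide arms are shown first because their near identity bears on how their reads were counted. All 7 members were found in RefSeq (GRCm38.p6). Sequences run 5′ to 3′ and capitals mark the seed.
miR-29a-3p: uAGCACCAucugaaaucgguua
miR-29b-3p: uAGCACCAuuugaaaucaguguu
miR-29c-3p: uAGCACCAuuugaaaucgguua

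The seed AGCACCA was shared by these 3 and by no other of the 1679 mature mouse miRNAs in the reference table. Counted from the 5′ end, miR-29a-3p and miR-29c-3p differed at 1 base, C10U. From miR-29c-3p to miR-29b-3p there were 3 substitutions, G18A, U21G and A22U, after 17 shared bases. The passenger arms have 4 different seeds, and are shown because they tell the 2 precursors of miR-29b apart.
miR-29a-5p: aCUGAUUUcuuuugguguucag
miR-29b-1-5p: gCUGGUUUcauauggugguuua
miR-29b-2-5p: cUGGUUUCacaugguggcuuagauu
miR-29c-5p: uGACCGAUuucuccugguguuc

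The precursors lie in 2 clusters (GENCODE M21, GRCm38, the build of the submitters' processing notes). Mir29a (chr6:31062660-31062747) and Mir29b-1 (chr6:31063023-31063093) are on the minus strand, 275 bases apart. Mir29a overlapped no other annotated gene, and Mir29b-1 overlapped an exon of the lincRNA Gm27019 by 2 bases. Mir29b-2 (chr1:195037040-195037120) and Mir29c (chr1:195037547-195037634) are on the plus strand, 426 bases apart. Both lay wholly within an exon of the noncoding transcript A330023F24Rik and antisense to an exon of Cd46.

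The letters that pair with the seed were counted in collagen 3′ untranslated regions as a description of the family's known targets. The 7 letters TGGTGCT, searched on the transcript strand in the longest annotated 3′ untranslated region of each gene, occurred in 25 of 44 collagen genes (56.8%). Over all genes they occurred in 2740 of 20996 (13.1%). Among other genes with a region as long as the middle 50% of the collagens, 781 to 1763 bases, they occurred in 610 of 5507 (11.1%). Per 1000 bases the collagens held 0.693 matches and all genes 0.106. Col1a1 and Col3a1, chains of the fibrillar collagens of bone and soft connective tissue, each held 1 match, shown with its flanking bases and with the match in capitals.
Col1a1 (chr11:94952523-94952545, plus strand): gtgggaaggaatttcTGGTGCTa
Col3a1 (chr1:45348967-45348989, plus strand): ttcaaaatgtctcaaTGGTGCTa

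A match is a run of letters and not a measured site. Col1a2, the partner chain of Col1a1 in type I collagen, had no match in its annotated region of 882 bases. Col5a1, a chain of the collagen that nucleates fibrils, had 4, and Col4a1 and Col4a2, the main basement membrane chains, had 1 and 2.

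The libraries held 2742368 to 4031962 counts in MC3T3 cells and 1183011 to 2023036 in calvaria, and levels are given as RPM, counts scaled to these totals. At day 0 miR-21a-5p took 45.55% of the counts, against 11.23% to 20.14% on the later days and 5.408% to 9.74% in calvaria. RPM counts every read of a library, whereas TMM scaling sets libraries by the bulk of their miRNAs, and it gave day 0 the factor 0.7393 and the other days 1.0083 to 1.1861. Intervals for 1 library or for a ratio of 2 libraries are exact 95% intervals (Poisson for a level, binomial for a ratio) and cover counting error only.

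Reads of the guide arms were divided between entries. The counts of miR-29a-3p were whole (within 0.02) in 1 of 8 libraries, those of miR-29b-3p in 5 and those of miR-29c-3p in 2. The sum over the 3 guide arms was whole in 8 of 8 libraries, and the passenger arm counts were whole in 32 of 32 values. The total of the guide arms thus does not depend on how shared reads were divided, whereas the level of each guide arm does. The 2 entries of miR-29b-3p cannot be told apart by sequence and held nearly the same count in every library, for example 85.5 and 87.5 at day 24.

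miR-29a-3p carried the family. Its level was 2784, 2576, 2533, 4323 and 4204 RPM at days 0, 6, 10, 17 and 24, and 721, 643.3 and 575.1 RPM in calvaria 1, 2 and 3. The highest levels were those of days 17 and 24, and every MC3T3 library lay above every calvaria library. By count it ranked 28th to 46th among mature miRNAs in MC3T3 cells and 92nd to 98th in calvaria. It made up 97.13% to 98.14% of the guide arm counts in MC3T3 cells and 95.74% to 97.62% in calvaria.

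miR-29b-3p, the guide arm that both clusters encode, was measured at 75.23, 41.2, 45.42, 82.06 and 63.08 RPM on the 5 days and at 26.2, 12.19 and 14.89 RPM in calvaria. Days 0 and 17 were highest, and again no calvaria library reached the lowest MC3T3 library. miR-29c-3p was measured at 6.902, 12.94, 12.51, 20.09 and 16.65 RPM, and at 5.917, 3.46 and 1.861 RPM in calvaria. Its lowest MC3T3 library, day 0, was 1.17 times the highest calvaria library, and the counting intervals of these 2 libraries overlapped. Among the guide arms the order miR-29a-3p, miR-29b-3p, miR-29c-3p was the same in all 8 libraries.

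The passenger arms were rare, with 0 to 27 counts per library. miR-29a-5p had 10, 7, 12, 17 and 16 counts on the 5 days (2.48, 2.218, 3.865, 4.314 and 5.834 RPM) and 1, 1 and 2 counts in calvaria. miR-29b-1-5p had 12, 12, 7, 18 and 10 counts (2.976, 3.803, 2.255, 4.568 and 3.646 RPM) and 2, 1 and 0 counts in calvaria. The count of 0 in calvaria 3 allows a level of up to 2.23 RPM, the value of 3 counts there, and the exact Poisson interval reaches 2.746 RPM, above the lowest MC3T3 value. The intervals of calvaria 1 and 2 reach 6.107 and 2.754 RPM, also above that value. For each calvaria library taken alone, the gap to the lowest MC3T3 library is therefore within counting error. The intervals of miR-29a-5p in calvaria 1, 2 and 3 reach 4.71, 2.754 and 5.378 RPM, likewise above the lowest MC3T3 value of that arm. Both of these arms come from the chromosome 6 cluster, and their calvaria libraries lay below their MC3T3 libraries.

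The passenger arms of the chromosome 1 cluster overlapped between the materials. miR-29b-2-5p had 5, 7, 13, 8 and 5 counts in MC3T3 cells and 1, 3 and 3 in calvaria, at 1.24 to 4.187 RPM and 0.8453 to 2.233 RPM. miR-29c-5p had 11, 12, 19, 27 and 16 counts and 6, 6 and 4, at 2.728 to 6.852 RPM and 2.966 to 5.072 RPM. Calvaria 1 stood above 2 MC3T3 libraries for miR-29c-5p, those of days 0 and 6.

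**Figure D1:**
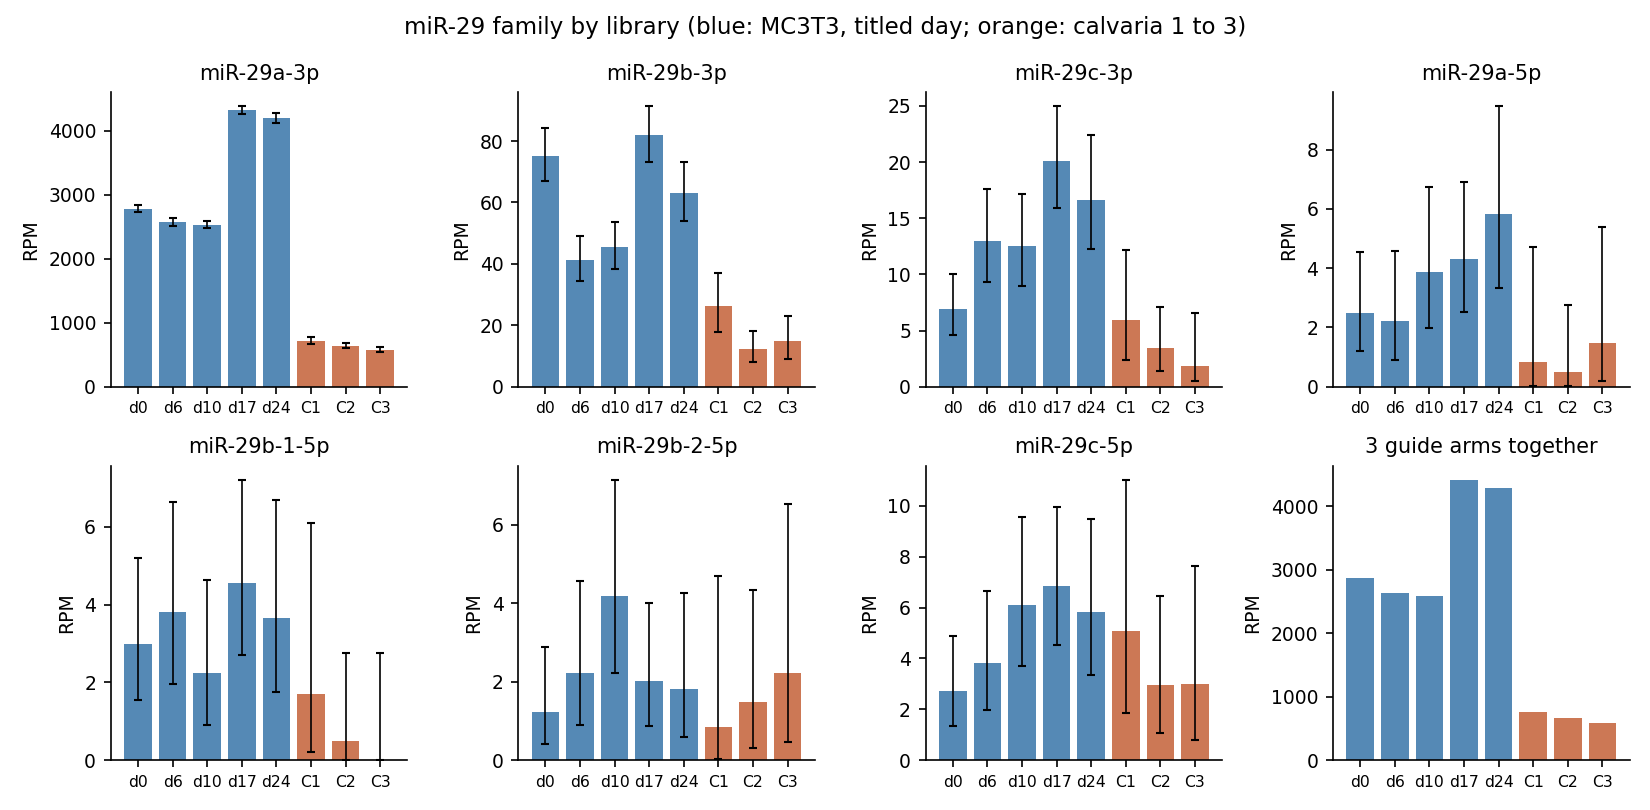
Level of each of the 7 miR-29 members, and of the 3 guide arms together, in RPM (vertical axes, each starting at 0 and each with its own range) in the 5 MC3T3 libraries by titled day and in calvaria 1 to 3; bars are single libraries and error bars exact 95% Poisson intervals (none for the sum). miR-29a-3p lay between 2533 and 4323 RPM in MC3T3 cells and between 575.1 and 721 RPM in calvaria, while miR-29b-2-5p and miR-29c-5p overlapped.

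How calvaria differed from MC3T3 cells was asked first. In this comparison the 5 MC3T3 days stand in for replicates, so their spread includes the change over days. The guide arms were lower in calvaria, and miR-29a-3p showed the difference with the highest counts. Its mean level was 646.5 ± 73 RPM over the 3 calvaria libraries (SD, n = 3). Over the 5 MC3T3 days it was 3284 ± 900 RPM (SD), 5.08 times as much. The guide arms together averaged 668 ± 81.1 and 3359 ± 916 RPM, 5.03 times as much, and this value is independent of the division of shared reads. The lowest MC3T3 library held 3.44 times the guide arm RPM of the highest calvaria library.

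In the edgeR quasi-likelihood test over 471 mature miRNAs, with Benjamini-Hochberg adjustment, 5 of the 6 members tested passed an adjusted p of 0.05, each lower in calvaria. Of all miRNAs tested 64.1% passed, 28.7% lower and 35.5% higher, so the materials differed widely and a call alone sets no miRNA apart. With upper quartile scaling those shares were 40.8% and 30.1%. The log2 difference of miR-29a-3p was -2.57 ± 0.30 (SE, adjusted p 2.3e-05), where the median of all 471 was 0.064, and 19 miRNAs had a lower one. miR-29b-3p differed by -2.06 ± 0.43 (adjusted p 0.00173) and miR-29c-3p by -2.12 ± 0.45 (adjusted p 0.00183). These 3 calls held in each alternative in which the miRNA was tested, over log2 ranges of -3.03 to -2.29, -2.53 to -1.35 and -2.66 to -0.80. For miR-29c-3p, with 10 counts in no calvaria library, the filter largely fixes that direction.

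Of the passenger arms, miR-29a-5p differed by -2.21 ± 0.56 (edgeR adjusted p 0.00555) and miR-29b-1-5p by -2.49 ± 0.61 (adjusted p 0.00448). Without calvaria 2 the adjusted p values of these arms were 0.0659 and 0.057, and the family then had 3 calls. miR-29c-5p did not pass, at -0.68 ± 0.38 (adjusted p 0.14). With upper quartile scaling it did, at -1.12 (adjusted p 0.0203). miR-29b-2-5p was below the filter of 10 counts in 3 libraries, and with no filter its value was -0.87 ± 0.58 (adjusted p 0.248). Only miR-29a-3p and miR-29b-3p had 10 counts in calvaria libraries, in 3 of 3. The other 4 tested members passed the filter through MC3T3 libraries alone, which largely fixes their direction.

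Libraries of the materials did not overlap for 5 of 7 members, all lower in calvaria. Of these, miR-29c-3p, miR-29a-5p and miR-29b-1-5p had 10 counts in no calvaria library, which largely fixes their direction. Only miR-29a-3p and miR-29b-3p are free of this limit. Among the 471 miRNAs tested, which leave out miR-29b-2-5p, 21.9% were without overlap in that direction and 39.5% in the other.

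**Figure D2:**
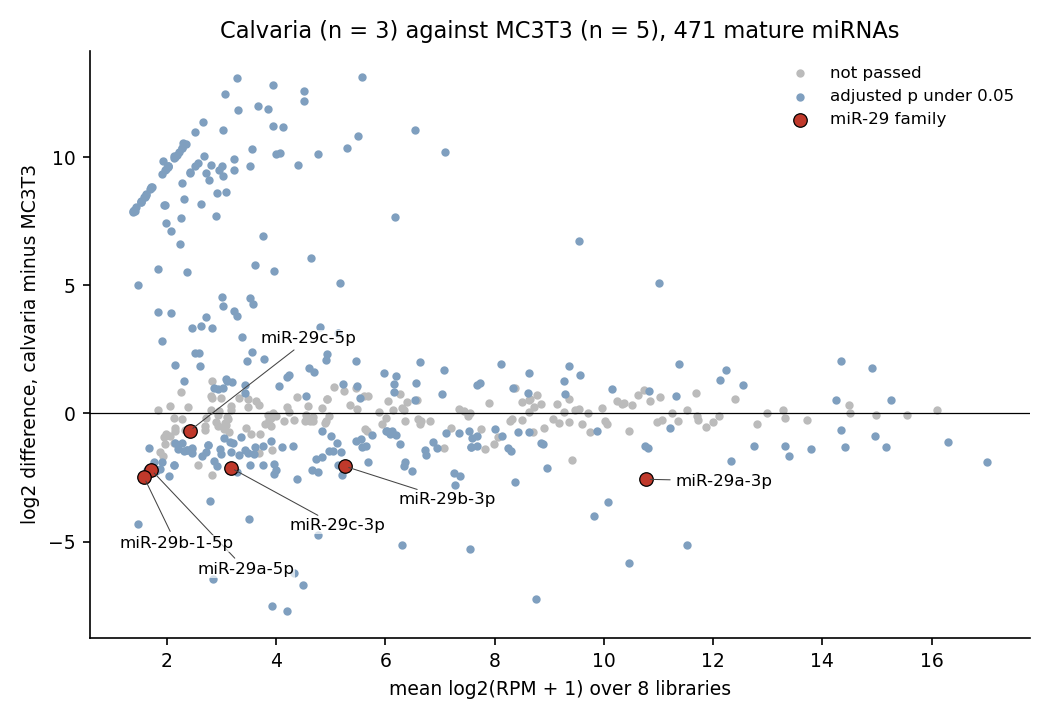
Log2 difference between calvaria (n = 3) and MC3T3 libraries (n = 5) from the edgeR fit (vertical axis) against mean log2(RPM + 1) over the 8 libraries (horizontal axis) for 471 mature miRNAs; each point is a miRNA, blue where the adjusted p was under 0.05, and the 6 tested miR-29 members are red. miR-29a-3p lies far to the right of the other members at -2.57, and miR-29c-5p is the member nearest to 0.

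Calvaria was also set against the late and the early MC3T3 days alone. Against days 17 and 24 alone miR-29a-3p was lower in calvaria by -3.03 ± 0.14 on the log2 scale (edgeR adjusted p 6.04e-06, with 32.6% of 476 miRNAs called lower). Against days 0 and 6 alone the difference was -2.35 (adjusted p 0.000344, with 25.8% of 484 called lower). miR-29c-3p differed by -2.66 from the late days (adjusted p 0.000914) and by -1.65 from the early days (adjusted p 0.0223). For miR-29b-3p the values were -2.36 (adjusted p 0.000621) and -2.10 (adjusted p 0.00866). miR-29c-5p passed against the late days, at -1.13 (adjusted p 0.0175), and not against the early days, at -0.09 (adjusted p 0.882). miR-29c-3p and miR-29c-5p had 10 counts in no calvaria library. They entered these fits through MC3T3 libraries alone, which largely fixes their direction. The comparisons share the calvaria libraries, and the difference between them was not tested.

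Calvaria is bone tissue of several cell types, whereas MC3T3 cells are a clone. In bulk RNA, fewer cells that hold a miRNA and less of it per cell cannot be told apart. Markers of other cell types differed between the materials as well, by their summed RPM. The 2 endothelial miR-126 arms summed to 9028 to 20320 RPM in calvaria and 6.199 to 19.01 in MC3T3 cells, and 2 of 2 were higher by the edgeR test. The 4 cartilage arms of miR-140 and miR-455 summed to 61230 to 111600 and 18220 to 28780 RPM, and 4 of 4 were higher. The 9 blood cell miRNAs summed to 447.6 to 675.2 and 75.65 to 127.6 RPM, with 7 higher and 1, miR-486-5p, lower. Of the markers called higher, miR-126-5p, miR-451a, miR-144-3p, miR-142-3p, miR-142-5p and miR-223-3p had under 10 counts in every MC3T3 library. They passed the filter through calvaria alone, which largely fixes their direction. The part of these cell types in the result was not tested.

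The remaining lists held epithelial, muscle, nervous system and mesenchymal miRNAs. The 6 epithelial miRNAs summed to 73.16 to 78.61 RPM in calvaria and 3.224 to 12.4 RPM in MC3T3 cells, with 2 of 2 tested members higher. Of these, miR-200b-3p had under 10 counts in every MC3T3 library, which largely fixes its direction. Among the untested, miR-205-5p had a lower mean in calvaria, 1.437 against 2.381 RPM. The means of miR-200a-3p, miR-200c-3p and miR-141-3p were higher in calvaria. The 6 striated muscle miRNAs overlapped, at 283.2 to 642.4 and 212.6 to 574.4 RPM, in their sums. Of 4 tested, 2 were higher in calvaria, miR-1a-3p (log2 difference 2.00, edgeR adjusted p 0.00113) and miR-133a-3p (2.99, adjusted p 3.9e-05). The other 2 went the other way and did not pass, miR-206-3p (-1.33, adjusted p 0.149) and miR-499-5p (-2.015, adjusted p 0.0573). miR-208b-3p was at 0 counts in every library. The 5 nervous system miRNAs summed to 607.8 to 693 and 334 to 462.3 RPM, with 0 of 3 tested members called, and miR-124-3p was at 0 in every MC3T3 library. The 5 mesenchymal miRNAs of the miR-199, miR-214 and miR-143/145 genes, which mark the lineage of both materials, overlapped in their sums at 131900 to 145900 and 130000 to 187900 RPM. Of these 5, miR-199a-3p was higher in calvaria (log2 difference 0.51, edgeR adjusted p 0.0325), and miR-143-3p (-1.10, adjusted p 0.000525) and miR-145a-5p (-1.28, adjusted p 0.000332) were lower.

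Whether the family changed over osteogenic differentiation was asked with a linear trend over the 5 MC3T3 days. No member passed: 0 of 6 tested were called, where 2.3% of 391 mature miRNAs were, 1.02% higher with day and 1.28% lower. At an unadjusted p under 0.05 there was 1 member, miR-29c-3p (0.0482). The DESeq2 Wald test called 0 members and 8.44% of all miRNAs, and limma called 0 of either. The fitted log2 change over 24 days was 0.44 ± 0.44 for miR-29a-3p (edgeR adjusted p 0.577), -0.25 ± 0.60 for miR-29b-3p (adjusted p 0.821) and 0.98 ± 0.42 for miR-29c-3p (adjusted p 0.207). The values of the passenger arms were 1.04 ± 0.61 for miR-29a-5p (adjusted p 0.336), 0.10 ± 0.62 for miR-29b-1-5p (adjusted p 0.925) and 0.86 ± 0.55 for miR-29c-5p (adjusted p 0.369). The median over all 391 was -0.122. In data simulated for these 391 miRNAs the test called 41.4% of the 2-fold trends and 97% of the 4-fold trends. The simulation gave a trend of each size to 99 tested miRNAs and set 1 fixed spread for all. In the real data far fewer miRNAs were called, so these shares do not say how large a trend could be missed here.

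Without the undifferentiated library the result for miR-29a-3p was different. Over days 6 to 24, 4 libraries, miR-29a-3p rose by 1.04 ± 0.28 on the log2 scale, 2.05-fold (edgeR adjusted p 0.00461). It was 1 of 6 members called, where 7.11% of 380 miRNAs were called higher, 7.89% lower and 15.0% either way. miR-29b-3p did not pass, at 0.97 ± 0.36 over the 18 days (adjusted p 0.0547), nor did miR-29c-3p, at 0.71 ± 0.45 (adjusted p 0.322). Leaving out any other day left miR-29a-3p uncalled.

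The libraries show where the level of miR-29a-3p moved. From day 10 to day 17 its RPM was 1.71 times as high (interval 1.66 to 1.75), and 25 of 357 miRNAs had a higher ratio. On each side it was nearly level by RPM, at 0.983 (0.953 to 1.01) from day 6 to day 10 and 0.972 (0.95 to 0.996) from day 17 to day 24. With TMM scaling the ratios of these side steps were 1.12 and 1.05, without intervals. miR-29b-3p had a ratio of 1.81 (1.48 to 2.22) from day 10 to day 17 and miR-29c-3p one of 1.61 (1.07 to 2.41). The median ratio of all miRNAs in that step was 1.05. With TMM scaling the 3 guide arm ratios were 1.64, 1.74 and 1.55. The step was thus seen in all 3 guide arms, but these are not independent observations. Their shared reads were divided between them, and they share the library totals. The step rests on 1 library on each side and has no replicate check.

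The size of the first step depended on scaling. From day 0 to day 6 miR-29a-3p had an RPM ratio of 0.925 (0.899 to 0.952) and a TMM-scaled ratio of 0.577. The median over all miRNAs in this step was 1.69 by RPM and 1.05 by TMM. miR-29b-3p stood lower at day 6 either way, with 0.548 (0.443 to 0.675) by RPM and 0.342 by TMM. miR-29c-3p, with 28 and 41 counts, had a ratio of 1.87 (1.13 to 3.14) by RPM and 1.17 by TMM. The RPM value was near the median, with 147 of 348 miRNAs higher, and the TMM value has no interval. Of 348 miRNAs, 11 had a lower ratio than miR-29b-3p in this step. Over the whole course, day 24 against day 0, the RPM ratios were 1.51 (1.47 to 1.55) for miR-29a-3p, 0.839 (0.692 to 1.02) for miR-29b-3p and 2.41 (1.48 to 4.01) for miR-29c-3p, with a median over all miRNAs of 1.37. The TMM-scaled ratios were 1.11, 0.615 and 1.77, with a median of 1.01.

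**Figure D3:**
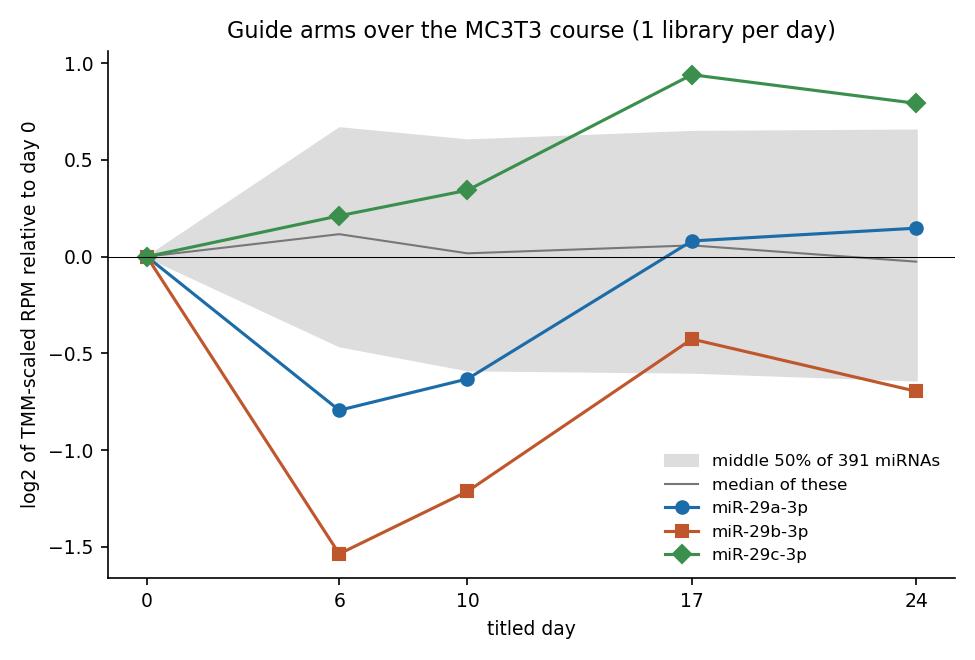
TMM-scaled RPM of the 3 guide arms over the MC3T3 course as log2 relative to day 0 (vertical axis) against the titled day (horizontal axis), 1 library per day; the grey band holds the middle 50% of 391 mature miRNAs and the grey line is their median. miR-29a-3p and miR-29b-3p were lowest at day 6, at -0.79 and -1.54, and all 3 guide arms were higher at day 17 than at day 10.

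Ratios between members within a library are free of library scaling and were compared between calvaria and MC3T3 cells for 5 pairs. The exact permutation test over 3 against 5 libraries has 56 arrangements and cannot give a two-sided p below 0.0357, and no pair passed after adjustment over the 5. The guide to passenger ratio of miR-29a was 1120, 1160, 655, 1000 and 721 on the 5 days and 853, 1300 and 386 in calvaria. These values overlapped, with a log2 difference of -0.27 (exact permutation p 0.571, adjusted 0.571). The calvaria ratios rest on 1 or 2 passenger counts.

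The guide to passenger ratio of miR-29c was much nearer to 1. It was 2.53, 3.4, 2.04, 2.93 and 2.85 in MC3T3 cells and 1.17, 1.17 and 0.625 in calvaria, so the values of the materials did not overlap. The calvaria ratios rest on 7, 7 and 2.5 guide counts and 6, 6 and 4 passenger counts. Their counting intervals include 1 and overlap those of every MC3T3 library. The mean ratio was 2.86-fold lower in calvaria (log2 difference -1.52, exact permutation p 0.0357, the smallest the design allows, adjusted p 0.179). The count of miR-29c-3p depends on how reads shared with miR-29a-3p were divided, and its part in this ratio was not tested.

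**Figure D4:**
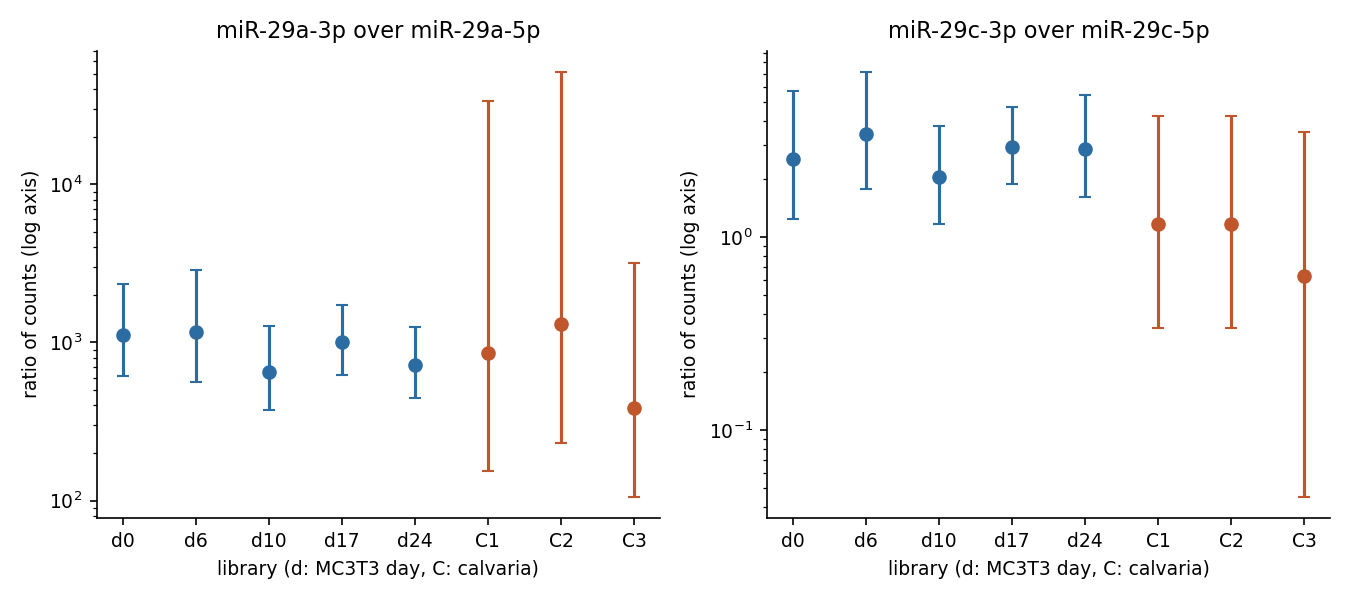
Ratio of guide to passenger counts for miR-29a (left) and miR-29c (right) in each library, on log axes; points are single libraries and error bars exact 95% binomial intervals of the ratio. The miR-29a ratio lay between 386 and 1300 with overlapping materials, and the miR-29c ratio between 2.04 and 3.4 in MC3T3 cells and between 0.625 and 1.17 in calvaria.

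Ratios between guide arms differed little. miR-29a-3p exceeded miR-29c-3p 199- to 403-fold in MC3T3 cells and 122- to 309-fold in calvaria (log2 difference -0.36, exact permutation p 0.393, adjusted 0.491). The ratio of miR-29b-3p to miR-29a-3p differed by 0.49 on the log2 scale (exact permutation p 0.179, adjusted 0.298). The passenger arms of the 2 miR-29b precursors had ratios of 2.4, 1.71, 0.538, 2.25 and 2 in MC3T3 cells and of 2, 0.333 and 0 in calvaria. The difference, with 0.5 added to each count, was -1.72 on the log2 scale (exact permutation p 0.107, adjusted 0.268). The interval of this ratio included 1 in each of the 8 libraries. With 0 to 18 counts per arm these intervals are wide, so no single library tells which passenger arm was the more abundant.

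Across the 8 libraries the log2 levels of the guide arms went together, as a description in which both materials and the library totals are shared. Pearson's r of log2(RPM + 1) was 0.941 between miR-29a-3p and miR-29b-3p, 0.915 between miR-29a-3p and miR-29c-3p and 0.844 between miR-29b-3p and miR-29c-3p. Within the 5 MC3T3 libraries the last of these was 0.05. Between miR-29a-3p and the passenger arms it was 0.901 for miR-29a-5p and 0.32 for miR-29b-2-5p over the 8 libraries.

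The miRNAs outside the family most like each guide arm were ranked by the same measure among 257 with at least 10 counts in every library. For miR-29a-3p they were miR-22-3p (0.982), miR-193a-5p (0.968) and miR-31-5p (0.968). miR-22-3p was also first for miR-29b-3p (0.957), followed by miR-22-5p (0.941) and miR-34b-5p (0.928). For miR-29c-3p they were miR-365-3p (0.975), miR-669o-5p (0.966) and let-7b-5p (0.966). All 8 had a lower mean in calvaria, a direction that ranking by likeness largely fixes. miR-22-3p averaged 5872 ± 313 RPM in calvaria (SD, n = 3), against 15700 ± 3490 RPM over the MC3T3 days. miR-31-5p, known to restrain osteoblast differentiation, averaged 21.22 ± 7.31 RPM in calvaria and 2888 ± 1080 RPM over the MC3T3 days.

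Other miRNAs reported to act on collagen or matrix transcripts were compared in the same fits. Of 12 listed, 10 were tested in calvaria against MC3T3 cells, with 3 higher and 1 lower (edgeR, adjusted p under 0.05), where 35.5% of all miRNAs tested were higher and 28.7% lower. They had a median log2 difference of 0.259 and a median over all miRNAs of 0.064. The higher ones were miR-133a-3p (2.99, adjusted p 3.9e-05), also a striated muscle marker, miR-19a-3p (0.83, adjusted p 0.0106) and miR-19b-3p (0.81, adjusted p 0.0125). The lower one was the Hox cluster miRNA miR-196a-5p (-7.51, adjusted p 8.64e-05). It was at 0 to 1.489 RPM in calvaria, under 10 counts in each library. It passed the filter through MC3T3 libraries alone, which largely fixes its direction, and its size rests on values near 0. The untested miR-133b-3p and miR-129-5p had higher means in calvaria, 4.257 and 6.633 RPM against 0.2178 and 0.3262 RPM. The most abundant, miR-26a-5p, was at 34990 ± 2900 RPM in calvaria (SD, n = 3) and at 31810 ± 7000 RPM over the MC3T3 days, a log2 difference of -0.06 (adjusted p 0.806). Over the MC3T3 days, where 2.3% of all miRNAs were called, 0 of the 10 rose and 1 fell, miR-196a-5p, with a fitted log2 change of -2.77 over 24 days (edgeR adjusted p 0.0341).

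Of 10 other miRNAs reported to promote osteoblast differentiation, 8 were tested. Over the MC3T3 days 1 of them rose, the hypoxia-induced miR-210-3p, by 4.88 on the log2 scale (edgeR adjusted p 0.0473), and 0 fell, where 2.3% of all miRNAs were called. The median was 0.604. In calvaria, where 64.1% of all miRNAs were called, 1 was higher, miR-322-5p (1.20, adjusted p 0.00191), and 1 was lower, miR-15b-5p (-1.89, adjusted p 0.00107), with a median of 0.002. The rest of those tested, miR-20a-5p, miR-27a-3p, miR-148b-3p, miR-218-5p and miR-335-5p, passed neither test.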

How the data were processed

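Libraries came from the NEBNext Small RNA kit (labels' protocols). The tools cutadapt 0.9.5 and Bowtie 0.12.7 and the build mm10 are named, without role or order, per the submitters' processing notes. For the counter and the miRBase release, the sources used here give nothing. The authors deposited estimated counts for each precursor's mature arms, and RPM that equal the counts over their library total within 0.01 for the members. MC3T3 column names carry days 3 lower than the titles, and titles were followed.

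Counts were rounded and summed per mature miRNA. The edgeR 4.0.16 quasi-likelihood test (R 4.3.3, TMM, Benjamini-Hochberg over all miRNAs tested, threshold 0.05) required 10 counts in 2 MC3T3 libraries for the linear day trend and in 3 of 8 libraries for calvaria against MC3T3. It was tested on simulated data. Ratios used exact permutation tests (scipy 1.17.1). DESeq2 1.42.0, limma 3.58.1, other scalings, filters and left-out libraries were alternatives. Named miRNAs were all members, the 3 most correlated with each guide arm, and list members past the threshold or most abundant. Some list members that were not called or not tested are named as well. Members and lists were chosen with earlier results of these data known. The markers miR-126, miR-142 and miR-219 carry the names of the table.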

Additional observations from a re-analysis of the deposited data

How the results depend on the processing

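No paired analysis was possible because the labels give the samples no shared replicate numbers. The number of members lower in calvaria was 5, and 2 with a minimum of 100 counts, which tests only 2. Leaving out 1 library gave 3 to 5. The number of members with a day trend was 0, and 0 to 1 with a library left out. The trend of miR-29a-3p then ranged from 0.20 to 1.39 on the log2 scale per 24 days, the highest without day 0. The trend of miR-29b-3p, -0.25, changed sign with library totals (0.16), in limma on log2(RPM + 1) (0.22) and log2(RPM + 10) (0.18) and without day 0 (1.29), and ranged from -0.52 to 1.29 with a library left out. That of miR-29b-1-5p was -0.13 on a log2(day + 1) scale. The miR-29a guide to passenger difference was 0.22 without calvaria 3, and -0.66 to 0.22 over all left-out libraries. With a library left out no ratio can reach an unadjusted p of 0.05. Causes of these changes were not tested.

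Over all miRNAs, the trend was called higher for 4 and lower for 5. These counts were 6 and 5 with DESeq2 size factors, 0 and 0 with library totals or limma, 19 and 14 by the DESeq2 Wald test, 7 and 10 with no filter, 0 and 1 with a minimum of 100 counts, 6 and 8 per precursor, and 39 and 49 on the log2(day + 1) scale. Leaving out day 0 gave 27 and 30, leaving out day 10 gave 7 and 7, and leaving out any of the other 3 days gave 0 and 0. Calls in calvaria were 167 higher and 135 lower, 142 and 192 with upper quartile scaling, 230 and 167 with no filter, 81 and 75 with a minimum of 100 counts, and 80 and 87, 77 and 86, or 81 and 92 without calvaria 1, 2 or 3, where fewer miRNAs were tested. The median log2 difference of all miRNAs was -0.37 with upper quartile factors, 0.231 with DESeq2 size factors and 0.249 with library totals, against 0.064. Counts under 10 limit the passenger arms in calvaria.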
